A study of Mus musculus with 40 samples.

Results

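Cytochrome P450 enzymes were read in mouse brain as 54 array probes for 46 genes. The members were the gene probes whose name begins with Cyp and a digit, leaving out Cyp51 and Cyp4f14, chosen by the scanner software's flag for a signal well above background, which had to be set for the full 4 arrays in any of the 10 groups. That was 54 of the 118 such probes on the array and 46 of its 95 such gene names, against 55589 measured gene probes with 36362 names in the whole series. Detection therefore chose the members, and how often a probe was detected is given below only as a description.

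The arrays held RNA of the cerebral cortex and the cerebellum of C57Bl/6 mice, 4 mice in each group. The wild-type groups in each region were 2 months old on a normal diet with 36 mg of α-tocopherol per kg, 29 months old on that diet, and 29 months old on an α-tocopherol-deficient diet. The Ttpa-/- groups were 29 months old and were fed either the deficient diet or a diet supplemented to 600 mg of α-tocopherol per kg. Ttpa encodes the liver protein that loads α-tocopherol, the main form of vitamin E, onto circulating lipoproteins, and Ttpa-/- mice lack it. No Ttpa-/- group was young or on the normal diet, so the genotype is free of a diet difference only where both genotypes had the deficient diet.

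Cytochrome P450 enzymes hold a haem iron and insert an oxygen atom into small lipids and foreign compounds, with electrons from the reductase Por in the endoplasmic reticulum or from ferredoxin in mitochondria. The best known families work in the liver, where they clear drugs and make bile acids. In the brain, members of the family turn cholesterol into oxysterols that can leave across the blood-brain barrier, make and remove neurosteroids, limit retinoic acid, and oxidise arachidonic acid and other fatty acids into signalling lipids. By these roles the 54 probes comprised 4 for sterol and bile acid enzymes, 3 for steroid hormone enzymes, 2 for enzymes of vitamins A and D, 22 for fatty acid and eicosanoid enzymes, 19 for the xenobiotic families 1, 2a to 2g and 3a, and 4 others.

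Each probe is a single strand of 60 bases, and its reading is the fluorescence of the labelled RNA that it captured. The first sequences below belong to the genes on which the results turn. Those of Cyp2e1 were from separate places of 1 transcript, and those of Cyp46a1 and Cyp3a11 span 2399 and 1868 bases of the genome with their 60 bases, so that each reaches across an intron. For Cyp2e1 probe 1 and Cyp26b1 the first 30 bases are printed. Probe positions are those the scanner files list, in mouse build mm9.
Cyp2e1 probe 1, + strand, chr7:147960628-147960687: ttcctcgttcatgagacctgctgcccatca
Cyp2e1 probe 2, + strand, chr7:147956922-147956981: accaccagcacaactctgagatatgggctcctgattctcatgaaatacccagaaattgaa
Cyp46a1, + strand, chr12:109596310-109598708: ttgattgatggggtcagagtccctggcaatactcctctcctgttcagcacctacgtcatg
Cyp3a11, - strand, chr5:146672058-146673925: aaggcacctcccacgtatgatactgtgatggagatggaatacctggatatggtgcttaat
Cyp27a1, + strand, chr1:74782203-74782262: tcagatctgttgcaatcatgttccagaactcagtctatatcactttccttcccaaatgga
Cyp26b1, - strand, chr6:84521952-84522011: gttcgtgtgtctcgttgtggtagcattaat

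The next stretches of 30 bases are shown because the genes moved together in Ttpa-/- cerebellum and because their probes share letters. The capitals mark the hexamer AATAAA, which lies near the end of many messenger RNAs. It was in 10 of the 54 member probes, or 18.5%, and in 10.06% of all array probes, read on the probe strand.
Cyp4a10 probe 1, + strand, chr4:115206200-115206259: ccatcttccctcctttctgcAATAAAgttc
Cyp4a31, + strand, chr4:115251553-115251612: ccatcttccctcctttctgcAATAAAggtc
Cyp4a12b, + strand, chr4:115111580-115111639: agtcttgccatcttccccacAATAAAgttc
Cyp21a1, - strand, chr17:34938298-34938357: gctggtgccttctgcccagtAATAAAtggt

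The probes of Cyp4a10 (probe 1) and Cyp4a31 hold a shared run of 34 bases, so that RNA of either gene may be read by both. Cyp4a10 probe 2 shared a run of 27 bases with another Cyp4a31 probe, and 54 of their 60 bases matched. Cyp2a4 shared 31 bases with a probe that carries no gene symbol, and Cyp2c67 shared 25 bases with a Cyp2c68 probe. The Cyp2u1 probe is mostly a dinucleotide repeat, a stretch of which is printed here because it occurs whole in 24 other probes of the array. Its level cannot be assigned to Cyp2u1 alone.
Cyp2u1, - strand, chr3:130996343-130996402: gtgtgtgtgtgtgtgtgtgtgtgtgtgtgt

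Levels are given as the log2 of the processed signal relative to the 75th percentile of the same array, so 0 is the level of that percentile. A probe was called changed when limma gave an adjusted p under 0.05, with Benjamini-Hochberg adjustment over every probe tested, and the fold change was above 1.5. Probes were tested where either compared group had all 4 arrays above background. The level of 1 probe is never set against that of another, because probes differ in how well they bind.

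The arrays were of even quality, with 51.5 to 61.5% of the gene probes above background and none saturated. Each of the 5 slides held 2 groups. Both groups of the comparison lay on 1 slide for aging in the cortex, for the deficient diet in the cerebellum and for the vitamin E diet in Ttpa-/- cerebellum. In the others, groups and slides change together and cannot be told apart. In cerebellum the first Ttpa probe was detected on 12 of 12 wild-type arrays and on 1 of 8 Ttpa-/- arrays, the 1 being on the supplemented diet, and in cortex on 1 of 20 arrays, so that there it checks nothing. The second Ttpa probe was detected on 0 of 12 wild-type and 1 of 8 Ttpa-/- cerebellar arrays, the 1 being on the deficient diet, and on 0 of 20 cortical arrays, and checks nothing in either region. All 6 cortical markers and all 6 cerebellar markers differed between the regions as the labels say.

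Of the 54 probes, 35 were above background on all 40 arrays. Cyp4b1 was detected on 17 of 20 cortical arrays and on 0 of 20 cerebellar arrays, and Cyp2c44, listed today as Cyp2c23, on 16 and 0. The reverse held for the pseudogene Cyp4f41-ps, at 0 and 20, and for the second probe of Cyp3a13, at 0 and 18. Just inside the detection rule were the third probe of Cyp2j13, on 5 arrays in all, and Cyp2c44. Just outside it were a probe for Cyp26a1, above background on 10 arrays, and a second probe for Cyp2u1, on 15. No probe passed the rule for 49 of the 95 gene names, among them the aromatase Cyp19a1, the bile acid enzyme Cyp7a1, the vitamin D enzymes Cyp27b1 and Cyp24a1, Cyp1a1, Cyp1a2 and Cyp4x1.

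**Figure D1:**
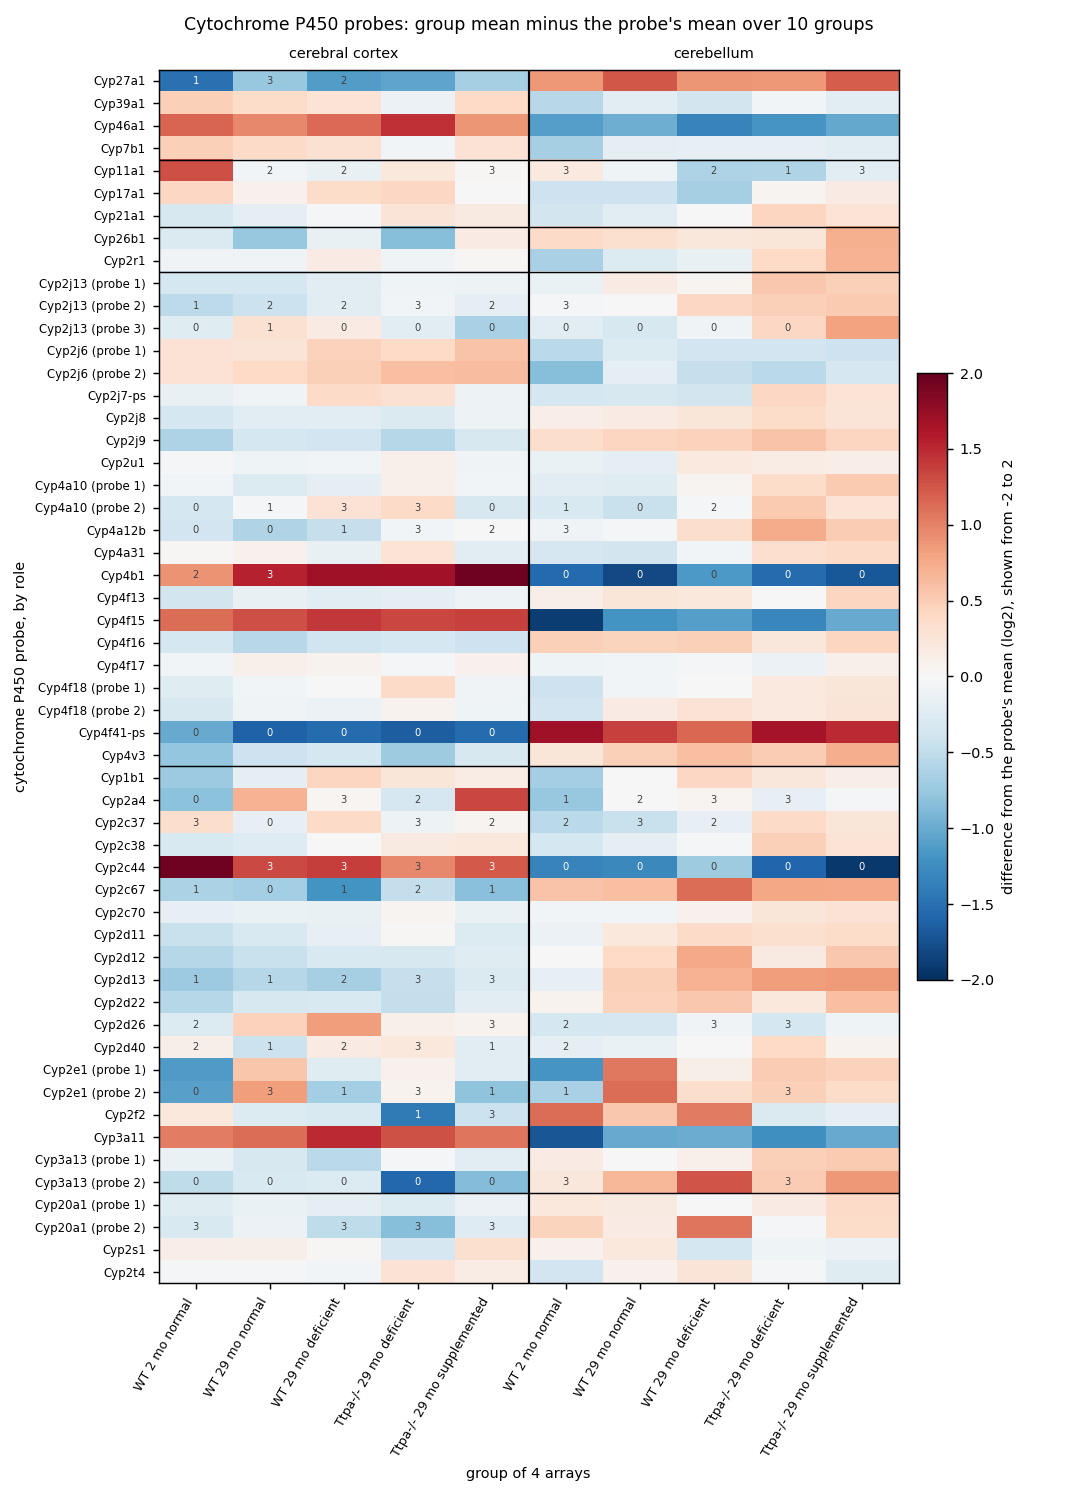
Group mean (log2 relative to the 75th percentile of the array) of the 54 probes, minus each probe's own mean over the 10 groups, ordered by role. Colours thus compare groups within a probe and not probes with each other. A digit gives the number of arrays above background where it was under 4. The contrast between the cortical and the cerebellar columns is the main structure, as in Cyp4f15 and Cyp4f41-ps, and Cyp2e1 is low in both 2-month columns.

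The region of the brain was where most members differed. At 2 months, 18 of the 43 members tested were called, 10 higher and 8 lower in cortex than in cerebellum. Over all probes tested, 38.4% were called, 19.1% higher and 19.3% lower in cortex. At 29 months, 17 of 49 members were called, 5 higher and 12 lower in cortex, against 33.6% of all probes, 15.8% higher and 17.8% lower. Among the 35 members above background on every array, for which detection decided nothing, 37.1% and 28.6% were called at the 2 ages, beside 33.4% and 28.8% of the 24803 probes so detected. The share of members that differed was thus near that of the array as a whole, and what follows is which enzymes lay on which side. Cyp2c44 entered by the detection rule only through a cortical group. Cyp4f41-ps, Cyp4a12b, Cyp2c67, Cyp2d13 and the second Cyp3a13 probe entered only through cerebellar groups. The detection rule thus bears on their side, which is given as a description. Here, as in every comparison of whole tissue, fewer cells of a type and less RNA per cell cannot be told apart.

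Of the 4 sterol enzymes, 3 were higher in cortex at 2 months and Cyp27a1 was lower. Cyp46a1, the neuronal enzyme that hydroxylates cholesterol for export from the brain, stood at 1.46, 1.33, 1.46 and 1.85 in the cortex of young mice and at -0.53, -1.12, -0.77 and -0.59 in their cerebellum. All cortical arrays were well above all cerebellar ones. The difference was 2.27 (SE 0.20, limma adjusted p = 1.1e-11) at 2 months and 1.94 (SE 0.20, adjusted p = 5.58e-10) at 29 months, a 4.83-fold and a 3.83-fold difference. Cyp7b1, which hydroxylates oxysterols and neurosteroids, was higher in cortex by 1.14 (SE 0.11, adjusted p = 7.32e-11) at 2 months; at 29 months it differed by 0.58 (adjusted p = 3.12e-05), a 1.49-fold difference that fell just short of the fold threshold. Cyp39a1, which also acts on oxysterols, was higher in cortex by 1.02 (SE 0.27, adjusted p = 0.00132) at 2 months, with 1 cortical array at 0.89 and the other 3 between -0.57 and -0.39; at 29 months the difference was 0.60 (adjusted p = 0.0551) and did not pass. Cyp27a1, the mitochondrial sterol hydroxylase, lay between -2.63 and -2.16 in young cerebellum and between -5.01 and -4.47 in young cortex, where it was above background on 1 of 4 arrays. The log2 difference, cortex minus cerebellum, was -2.37 (SE 0.16, adjusted p = 2.4e-14) at 2 months and -1.998 (adjusted p = 2.07e-12) at 29 months.

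Among the fatty acid enzymes the Cyp4f genes took opposite sides. Cyp4f15, of a family that hydroxylates leukotrienes and fatty acids at their end, was at 0.83, 0.64, 0.57 and 0.96 in young cortex and at -2.47, -2.80, -2.18 and -1.60 in young cerebellum. The regions were far apart, by 3.01 (SE 0.22, adjusted p = 1.54e-13), or 8.06-fold, at 2 months and by 2.48 (SE 0.22, adjusted p = 2.25e-11) at 29 months. Cyp4f16 was lower in cortex at both ages, with log2 differences of -0.84 and -1.005 (adjusted p = 4.36e-07 and 1.65e-08), and so was Cyp4f41-ps, which was at least 2.17-fold lower at 2 months and at least 1.59-fold lower at 29 months, bounds that follow from its being above background on no cortical array. Cyp4v3, another fatty acid hydroxylase, was lower in cortex too, at -1.01 and -0.89 (adjusted p = 5.49e-11 and 1.1e-09). The epoxygenases of the Cyp2j family also divided. Cyp2j9 was lower in cortex, at -0.97 and -0.79 (adjusted p = 1.83e-09 and 1.43e-07), with the cortical arrays of young mice between 2.29 and 2.56 and the cerebellar ones between 3.34 and 3.44. Cyp2j6 was higher in cortex, by 0.82 (adjusted p = 3.01e-08) at 2 months by its first probe and 1.15 (adjusted p = 1.75e-06) by its second. At 29 months the first probe gave 0.53 (adjusted p = 5.47e-05) and was under the fold threshold, while the second gave 0.59 and was called. That second call was lost without replicate 2 or 3 of aged cortex or replicate 1 or 2 of aged cerebellum, at 0.49, 0.58, 0.55 and 0.51. Cyp4a12b was at least 1.13-fold lower in cortex at 29 months (adjusted p = 0.008), a bound since it was above background on no cortical array of that group, and its groups overlapped. The call was lost when replicate 1 or 3 of aged cortex or replicate 3 or 4 of aged cerebellum was left out. Cyp4b1 was not tested, since neither wild-type group of these comparisons had it above background on all 4 arrays.

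Of the steroid hormone enzymes, Cyp11a1 and Cyp17a1 were called between the regions at 2 months and not at 29 months. Cyp11a1, which makes pregnenolone from cholesterol, was higher in cortex by 1.08 (SE 0.39, adjusted p = 0.0162), a call that was lost without replicate 4 of young cortex (0.83, adjusted p = 0.0816) or replicate 2 of young cerebellum (0.87, adjusted p = 0.0724). At 29 months its difference was 0.02 (adjusted p = 0.963). Cyp17a1, which turns pregnenolone into the precursors of sex steroids, was higher in cortex by 0.83 (SE 0.19, adjusted p = 0.000362), although 1 cerebellar array at 2.63 lay within the cortical range of 2.56 to 3.31. At 29 months it differed by 0.49 (adjusted p = 0.0288), below the fold threshold. No change of the region difference with age was called for either, by the test given with aging below.

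Cyp26b1, which breaks down retinoic acid, was the vitamin A enzyme among the members. It was lower in cortex, at -0.66 (SE 0.20, adjusted p = 0.00481) at 2 months and -1.08 (SE 0.20, adjusted p = 2.54e-05) at 29 months. The 8 cerebellar arrays lay between 2.09 and 2.59, and all 8 cortical arrays lay below them, between 0.78 and 1.88. The 2-month call passed below the fold threshold without replicate 4 of young cortex (-0.54) or replicate 4 of young cerebellum (-0.58). The vitamin D enzyme Cyp2r1 was not called in either comparison.

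The xenobiotic families held both the enzymes with a high cortical level and those with a high cerebellar one. Cyp3a11, a drug-metabolising enzyme best known from liver, read -1.38, -1.44, -1.21 and -1.27 in young cortex and -3.79, -4.36, -4.28 and -3.80 in young cerebellum. The regions did not overlap, and the difference was 2.73 (SE 0.21, adjusted p = 3.59e-13), or 6.66-fold, at 2 months and 2.13 (SE 0.21, adjusted p = 1.81e-10) at 29 months. Another Cyp3a11 probe, which failed the detection rule, was above background on 2 arrays in all. The Cyp3a11 values here and with age are thus readings of 1 probe. Cyp2c44, an epoxygenase by its family, was at least 2.99-fold higher in the cortex of young mice and was among the calls. The detection rule took it in through that group alone, so this is a description. At 29 months the bound was 2.32-fold with no test.

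Cyp2c67 was lower in cortex, at -1.21 (adjusted p = 0.00322) at 2 months and at least 2.13-fold (adjusted p = 0.00245) at 29 months. Another Cyp2c67 probe was above background on 0 arrays. Cyp2d22, a brain member of the 2d drug-metabolising group, was lower in cortex by -0.64 (adjusted p = 0.0169) and -0.79 (adjusted p = 0.00457). Its first call was lost without replicate 2 of young cortex (-0.49, adjusted p = 0.0871), and its second passed below the fold threshold without replicate 4 of aged cerebellum (-0.56). Of the same group, Cyp2d12 and Cyp2d13 were lower in cortex at 29 months, at -0.83 (adjusted p = 0.000776) and -1.04 (adjusted p = 0.00058), and Cyp2d26 was higher, at 0.80 (adjusted p = 0.00683). The second probe of Cyp3a13 was at least 1.13-fold lower in cortex at 29 months (adjusted p = 0.0225), a call that was lost without replicate 3 of aged cortex (adjusted p = 0.107) or replicate 2 of aged cerebellum (adjusted p = 0.0968).

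With the normexp background correction, 14 members were called between the regions at 2 months and 8 at 29 months. The calls lost at 2 months were those of Cyp4f16 (-0.38), Cyp2c67, Cyp2d22 (-0.27) and Cyp4f41-ps. At 29 months they were those of Cyp4f16 (-0.54), the second Cyp2j6 probe (0.42), Cyp2d12 (-0.51), Cyp2d13 (-0.33), Cyp2d22 (-0.53), Cyp2d26 (0.54), Cyp4a12b, Cyp2c67 and the second Cyp3a13 probe (adjusted p = 0.689).

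**Figure D2:**
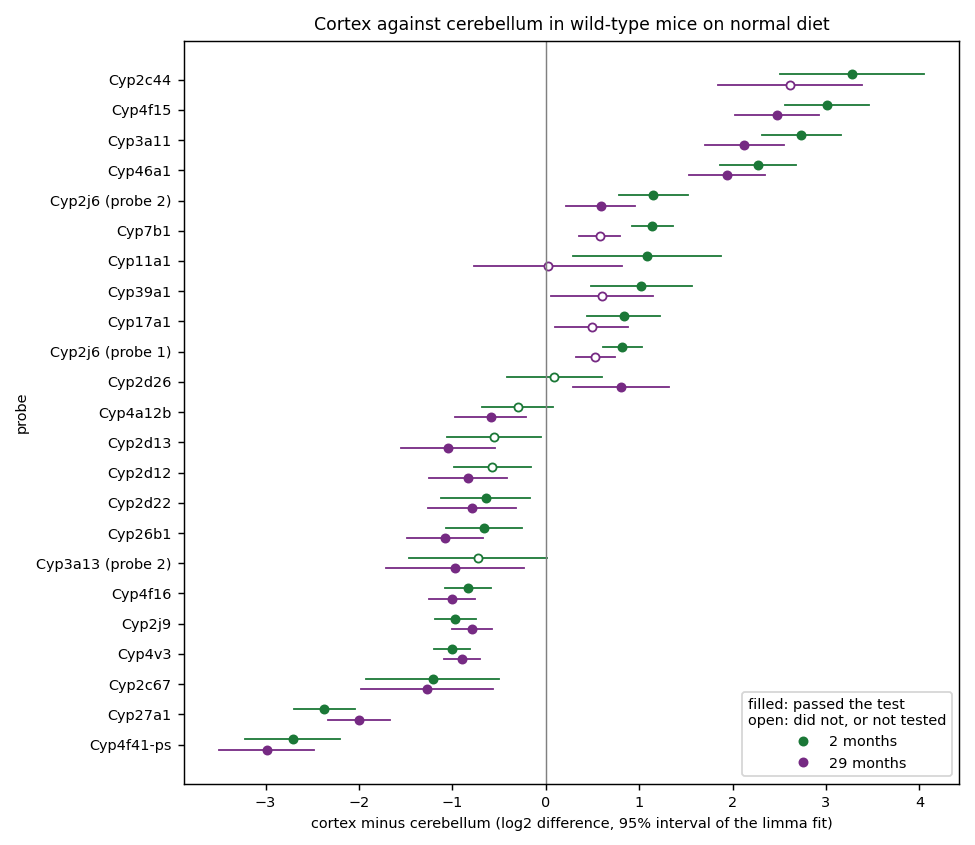
Difference between cortex and cerebellum (log2, cortex minus cerebellum) at 2 and at 29 months, with 95% intervals from limma. Only members called at either age are drawn. Filled points passed the test, and open points did not or were not tested. Probes above background on no array of a group are drawn at their measured difference. Cyp4f15, Cyp3a11 and Cyp46a1 lie far to the cortical side and Cyp4f41-ps and Cyp27a1 to the cerebellar side at both ages.

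Of the proteins that serve these enzymes, the electron carriers of mitochondria also differed by region. Of 10 redox partners tested, 2 were higher and 2 lower in cortex at 2 months, and 2 and 1 at 29 months. Fdxr, which feeds electrons to mitochondrial P450 enzymes such as Cyp27a1 and Cyp11a1, was lower in cortex by -1.29 and -1.32 at the 2 ages, and its carrier Fdx1 by -0.66 at 2 months. The related carrier Fdx1l was higher in cortex, by 1.16 and 1.14, and so was Pgrmc1, which binds P450 enzymes, by 0.95 and 0.91. Of the haem genes, 0 of 12 were called by limma at either age.

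Markers of other cells differed between the regions too. Of 6 microglial markers, 5 were higher in cortex at 2 months and 3 at 29 months, with a summed level, in multiples of the 75th percentile, of 125 to 148 against 82.7 to 89.1 and of 115 to 156 against 93.7 to 110. Of 9 choroid plexus genes, 0 were higher and 1 lower in cortex at 2 months by limma, while 6 were higher and 1 lower at 29 months, when the summed level was 37.7 to 235 in cortex and 23.8 to 26.9 in cerebellum. The haemoglobin and red cell genes were lower in cortex, 2 of 2 tested at 2 months and 3 of 3 at 29 months. Their part in the P450 values was not tested.

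With age, Cyp2e1 had the largest change of the members called in each region. It oxidises ethanol and other small molecules, and its level in the cortex of 2-month-old mice was -4.02, -3.91, -3.87 and -4.17 by its first probe. At 29 months the cortical arrays read -2.13, -2.28, -1.93 and -2.88. In cerebellum the young arrays read -4.13, -3.75, -4.17 and -4.13 and the aged ones -1.86, -1.70, -1.48 and -2.17. Every aged array was above every young one in both regions. The rise was 2.24 (SE 0.42, 95% interval 1.39 to 3.1, adjusted p = 0.00033), or 4.73-fold, in cerebellum and 1.69 (SE 0.42, 95% interval 0.83 to 2.54, adjusted p = 0.0149), or 3.22-fold, in cortex, and the exact permutation p was 0.0286 in each, the smallest that 4 against 4 arrays can give. The cerebellar rise stayed called with any 1 array left out, at 2.13 to 2.36. The cortical one was lost without replicate 3 of aged cortex (1.56, adjusted p = 0.0581) and with the normexp background correction (0.70, adjusted p = 0.0685). The difference between the regions was -0.55 (SE 0.59, adjusted p = 0.848).

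The second Cyp2e1 probe, which reads another place of the transcript, rose by 1.77 in cerebellum (SE 0.49, adjusted p = 0.0141), from -4.55, -5.31, -5.91 and -4.16 to -3.15, -2.96, -2.89 and -3.85. That call was lost without replicate 2 (1.67, adjusted p = 0.0517) or replicate 3 (1.47, adjusted p = 0.0678) of young cerebellum. The second probe entered by the detection rule only through groups of aged mice, so its rise is given as a description. In cortex this probe was not tested, being above background on 0 of 4 young and 3 of 4 aged arrays, a difference of at least 1.90-fold. The remaining groups of aged mice varied more. In wild-type mice on the deficient diet the first probe ran from -4.05 to -1.80 in cortex and from -4.59 to -1.70 in cerebellum, so that 1 array of each lay within or below the range of the young mice. In the 4 Ttpa-/- groups it ran from -3.36 to -1.53.

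In aged cerebellum 6 of the 48 members tested were higher and none was lower, beside 3.99% of all probes tested called higher and 5.03% called in either direction. Of the 6, the second Cyp2e1 probe was a member only through groups of aged mice. Among the 35 members above background on every array, 14.3% were called, and 4.16% of all such probes. The median change was 0.136 over the members tested and -0.0101 over all probes tested, while 15 of the members had groups that did not overlap, beside 19.1% of all probes. In cortex 1 member was higher and 1 lower of 41 tested, beside 1.59% of all probes higher, 0.499% lower and 2.09% in either direction.

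The other cerebellar calls were close to the thresholds, and with the normexp background correction the first Cyp2e1 probe alone kept its call of the 6. Cyp1b1, which acts on steroids, retinoids and polycyclic hydrocarbons, went from -2.10, -2.12, -1.94 and -1.88 to -1.38, -1.36, -1.47 and -1.14, with no overlap. The rise of 0.67 (SE 0.20, adjusted p = 0.029) was lost without replicate 1 or 2 of young cerebellum (0.64 for both, adjusted p = 0.0778 and 0.0851) or replicate 1 or 4 of aged cerebellum (0.69 and 0.60, adjusted p = 0.0566 and 0.0971). In cortex the Cyp1b1 difference was 0.55 (adjusted p = 0.145). Cyp3a11 rose by 0.71 (SE 0.21, adjusted p = 0.0227) in cerebellum, from a range of -4.36 to -3.79 to a range of -3.75 to -3.16. The call was lost in 5 of 8 leave-one-out fits, those without replicate 2 or 3 of young cerebellum or replicate 2, 3 or 4 of aged cerebellum, with values between 0.61 and 0.68. In cortex Cyp3a11 differed by 0.10 (adjusted p = 0.901), and the difference between regions of -0.61 had an adjusted p of 0.405.

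Cyp4f15 rose by 0.70 in aged cerebellum (SE 0.22, adjusted p = 0.0349), but the young and aged arrays overlapped and the exact permutation p was 0.0857. Its call was lost in 5 of 8 fits, without replicate 1, 2 or 3 of young or replicate 3 or 4 of aged cerebellum, with values between 0.52 and 0.73. The second Cyp2j6 probe rose by 0.67 (SE 0.18, adjusted p = 0.0135), which was lost without replicate 1 of young cerebellum (0.49, adjusted p = 0.0955) or replicate 4 of aged cerebellum (0.58, adjusted p = 0.0637). The first Cyp2j6 probe gave 0.27 (adjusted p = 0.0926). Cyp7b1 differed by 0.46 in cerebellum (adjusted p = 0.00425), a 1.37-fold difference under the fold threshold, with young arrays from 0.00 to 0.48 and aged ones from 0.59 to 0.85.

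In the cortex Cyp11a1 was the member that fell with age. Its arrays read -2.91, -2.77, -3.27 and -1.98 at 2 months and -4.50, -3.65, -4.14 and -4.00 at 29 months, where 2 of 4 were above background. The groups did not overlap, and the change was -1.34 (SE 0.39, 95% interval -2.13 to -0.55, adjusted p = 0.0423). The call was lost in 7 of 8 fits that left out 1 array, at -1.48 to -1.09 with adjusted p up to 0.169, and remained only without replicate 3 of young cortex. Cyp2a4 differed by at least 2.00-fold between young and aged cortex, with 0 of 4 and 4 of 4 arrays above background, but its adjusted p was 0.117. None of the 50 members tested had an aging change that differed between the regions by limma, and 1 (Cyp3a11) did at an unadjusted p under 0.05 with the fold threshold, beside 1.46% and 5.57% of all probes. A t-test over the 4 groups, which shared 1 estimate of the spread, called 0 members and 1.11% of all probes at the same thresholds.

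**Figure D3:**
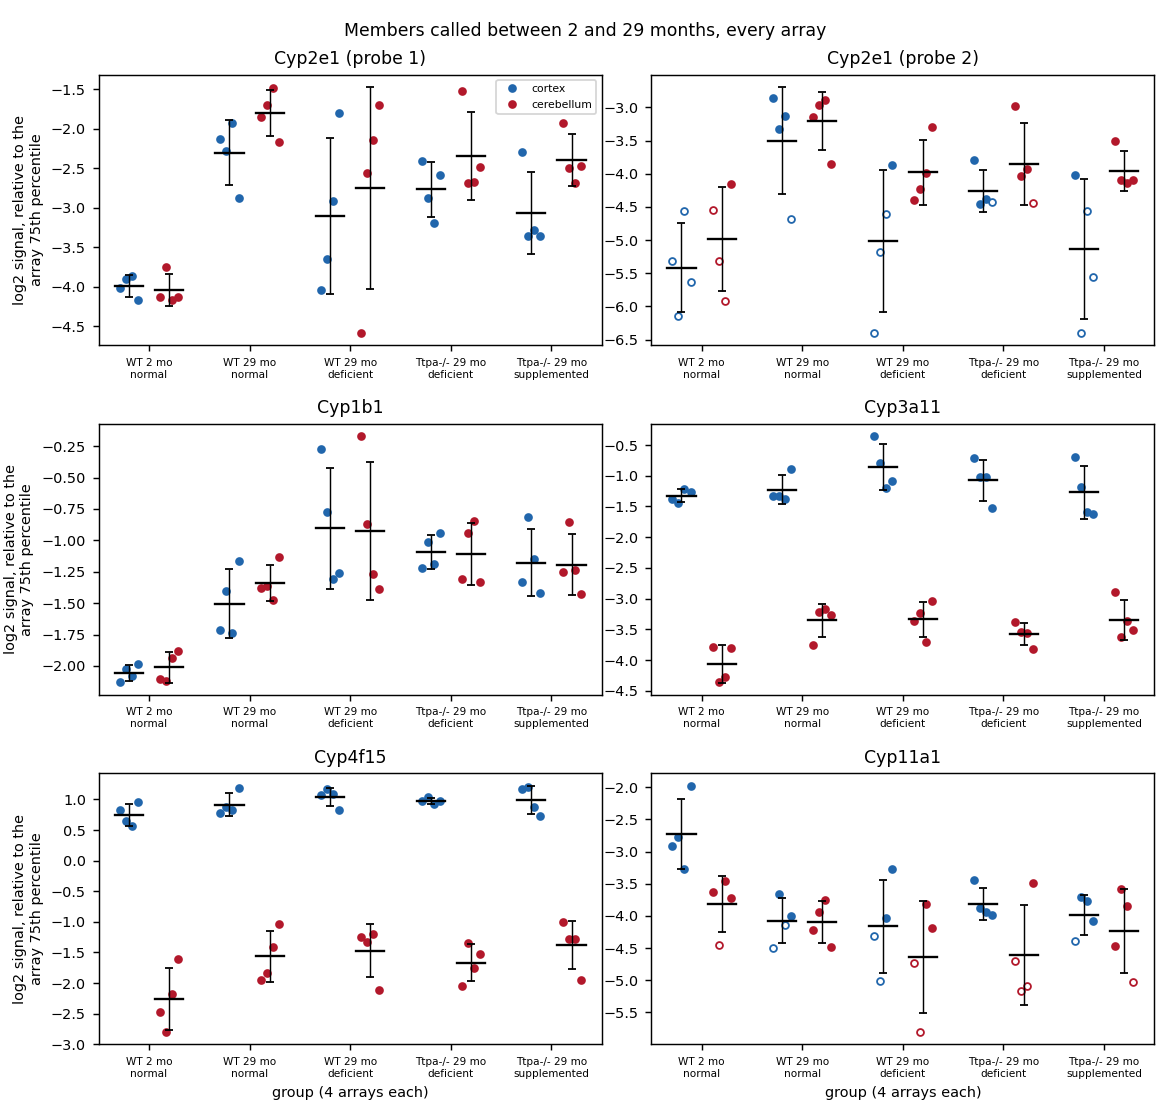
Level (log2 relative to the 75th percentile of the array) of members called between 2 and 29 months, Cyp2j6 left out, per array in all 10 groups (cortex blue, cerebellum red), with filled points above background and open points not; bars give the mean and error bars the SD of 4 arrays. By the first Cyp2e1 probe normal-diet wild-type mice of 29 months lie above all young mice in both regions, and Cyp11a1 falls in cortex.

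Markers of other cells also moved with age. In cerebellum 4 of 6 microglial markers were higher, among them Trem2 by 2.67 and Aif1 by 1.79, and the summed level of the list went from 82.7 to 89.1 up to 93.7 to 110. In cortex 1 of 6 was, Trem2 by 0.85. Of 6 astrocyte markers 1 was called in each region, Gfap, higher by 1.87 in cerebellum and 1.51 in cortex, and the medians of that list were 0.121 and 0.0686. The haemoglobin and red cell list of 3 genes went from 3.06 to 7.46 up to 11.9 to 84.4 in cerebellum with 2 of 3 called, and was 0.434 to 1.97 and 4.69 to 11.1 in cortex, with 0 of 2 tested called by limma. Of 8 choroid plexus genes tested, 2 were lower in aged cerebellum, Ttr by -7.70 and Kl by -2.30, and the median of that list was -1.58. Its summed level went from 30.6 to 391 down to 23.8 to 26.9. In cortex 0 of 9 choroid plexus genes were called by limma. Of 9 meningeal genes 1 was lower in aged cerebellum, Col3a1 by -1.39, and of 6 endothelial genes 1 was higher, Ly6c1 by 0.76. The liver list, where Cyp2e1 and Cyp3a11 are best known, stayed near background in cerebellum, at 0.175 to 0.311 and 0.207 to 0.356, with 3 of its 5 genes above background on 0 of 4 arrays in both groups. In cortex it stood at 0.131 to 1.09 and 0.354 to 0.917, again with 3 of 5 genes above background on 0 of 4 arrays in both groups, and the 1 gene tested, Serpina1a, was higher by 3.39 (limma adjusted p = 0.00282). The part of these other markers in the P450 values was not tested.

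Among the pathway genes, Ch25h, which makes an oxysterol that Cyp7b1 removes, rose with age by 1.97 in cortex and 2.58 in cerebellum, and Tspo, of the mitochondrial cholesterol supply, by 0.60 and 0.87. They were the 2 called genes of 12 oxysterol genes tested in cortex and of 13 in cerebellum. Of 12 haem genes 1 was called in each region, the haem-degrading Hmox1, at 0.68 and 0.76. Of the retinoid and vitamin D genes, Rara was higher in cortex by 0.62 and lower in cerebellum by -1.13, and Aldh1a1 was lower in cortex by -0.60. The redox partners, nuclear receptors, steroid enzymes and second-phase enzymes had 0 calls by limma in either region.

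Of the comparisons within 1 region, loss of Ttpa together with the deficient diet had the most member calls, all of them in the cerebellum. There 8 of 50 members tested, for 7 genes, were higher than in the 29-month-old wild-type controls, fed the normal diet, and none was lower, beside 2.67% of all probes called higher and 4.46% in either direction. Among the 35 members above background everywhere, 17.1% were called, and 3.55% of all such probes. The median change of 0.0752 over the members was small, beside -0.0242 over all probes. Of the 8 calls, 5 were in the fatty acid group, which held 20 of the 50 members tested, and both Cyp4a10 probes were among the 5. Only the call of Cyp2r1 was kept with the normexp background correction. Probes of these genes that did not pass the detection rule were mostly dark. Those of Cyp4a10, Cyp4a31 and Cyp21a1 were above background on 0 of 40 arrays, and those of Cyp2r1 and Cyp2c38 on 1. Apart from Cyp4a10, with both its member probes called, the call of each gene is the reading of 1 probe.

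The Cyp4a genes, which encode fatty acid ω-hydroxylases and lie together on chromosome 4, were among them. The first Cyp4a10 probe read -3.30, -2.99, -3.03 and -3.32 in wild-type cerebellum and -2.32, -2.71, -2.46 and -2.73 in Ttpa-/- cerebellum on the deficient diet. Cyp4a31 read -3.75, -3.81, -3.92 and -4.10 in wild-type and -3.10, -3.34, -3.05 and -3.33 in Ttpa-/- mice, and Cyp4a12b -4.09, -4.46, -3.98 and -3.76 against -3.28, -3.22, -3.49 and -3.28. In each the Ttpa-/- arrays were all above the wild-type arrays, though all of these levels are low. The changes were 0.61 (SE 0.19, adjusted p = 0.0295) for Cyp4a10, 0.69 (SE 0.17, adjusted p = 0.00672) for Cyp4a31 and 0.75 (SE 0.19, adjusted p = 0.00738) for Cyp4a12b. The second Cyp4a10 probe was above background on 0 of 4 wild-type and 4 of 4 Ttpa-/- arrays, and it was at least 1.77-fold higher. It entered by the detection rule only through the Ttpa-/- cerebellar groups, so this is a description. The first Cyp4a10 probe and the Cyp4a31 probe share a run of 34 bases, so they may not be separate readings of separate genes. The second Cyp4a10 probe resembles another Cyp4a31 probe, as given above. Whether a probe captured RNA of the other gene was not tested. The first Cyp4a10 call was lost without replicate 1 (0.56, adjusted p = 0.0837) or 4 (0.55, adjusted p = 0.0754) of wild-type or replicate 1 (0.53, adjusted p = 0.0865) or 3 (0.57, adjusted p = 0.0736) of Ttpa-/- cerebellum.

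Cyp2j7-ps, a pseudogene of the epoxygenase family, read -3.60, -4.15, -3.77 and -3.79 in wild-type and -3.15, -3.03, -2.92 and -3.26 in Ttpa-/- cerebellum, a rise of 0.74 (SE 0.20, adjusted p = 0.0129) that was lost without replicate 2 of wild-type cerebellum (0.63, adjusted p = 0.0549). Cyp2c38, of an arachidonic acid epoxygenase family, rose by 0.67 (SE 0.16, adjusted p = 0.00659), from a range of -2.60 to -2.45 to a range of -2.13 to -1.60. Cyp21a1, the adrenal enzyme that makes the precursors of corticosterone and aldosterone, rose by 0.64 (SE 0.14, adjusted p = 0.00271) and was chosen for naming after its values were seen. Cyp2c38 and Cyp21a1 passed below the fold threshold, at 0.58 and 0.52, without replicate 3 and replicate 1 of Ttpa-/- cerebellum, respectively.

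Cyp2r1, which hydroxylates vitamin D in the first step of its activation, was the member whose change differed between the regions. In cerebellum it read 1.51, 1.52, 1.59 and 1.92 in those controls and 1.77, 2.42, 2.45 and 2.59 in Ttpa-/- mice on the deficient diet. All but 1 of the Ttpa-/- arrays were above the wild-type range. The rise was 0.67 (SE 0.13, adjusted p = 0.000902, exact permutation p = 0.0571), and it passed below the fold threshold without replicate 4 of Ttpa-/- cerebellum (0.58). With only the compared groups in the fit its adjusted p was 0.0921, and that of the methods' t-test 0.129. In cortex wild-type arrays lay between 1.77 and 1.89 and Ttpa-/- arrays between 1.72 and 1.92, with a difference of 0.00 (adjusted p = 0.996). The difference between the regions, cortex minus cerebellum, was -0.67 (SE 0.18, 95% interval -1.05 to -0.30, adjusted p = 0.0247), and Cyp2r1 was the 1 call among 52 members tested, beside 3.38% of all probes. This call was lost without replicate 3 of Ttpa-/- cortex (-0.63, adjusted p = 0.0592), replicate 1 or 2 of wild-type cerebellum (-0.63 for both, adjusted p = 0.0536 and 0.0516) or replicate 4 of Ttpa-/- cerebellum (-0.58, adjusted p = 0.0755), and with median scaling (-0.60, adjusted p = 0.287).

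**Figure D4:**
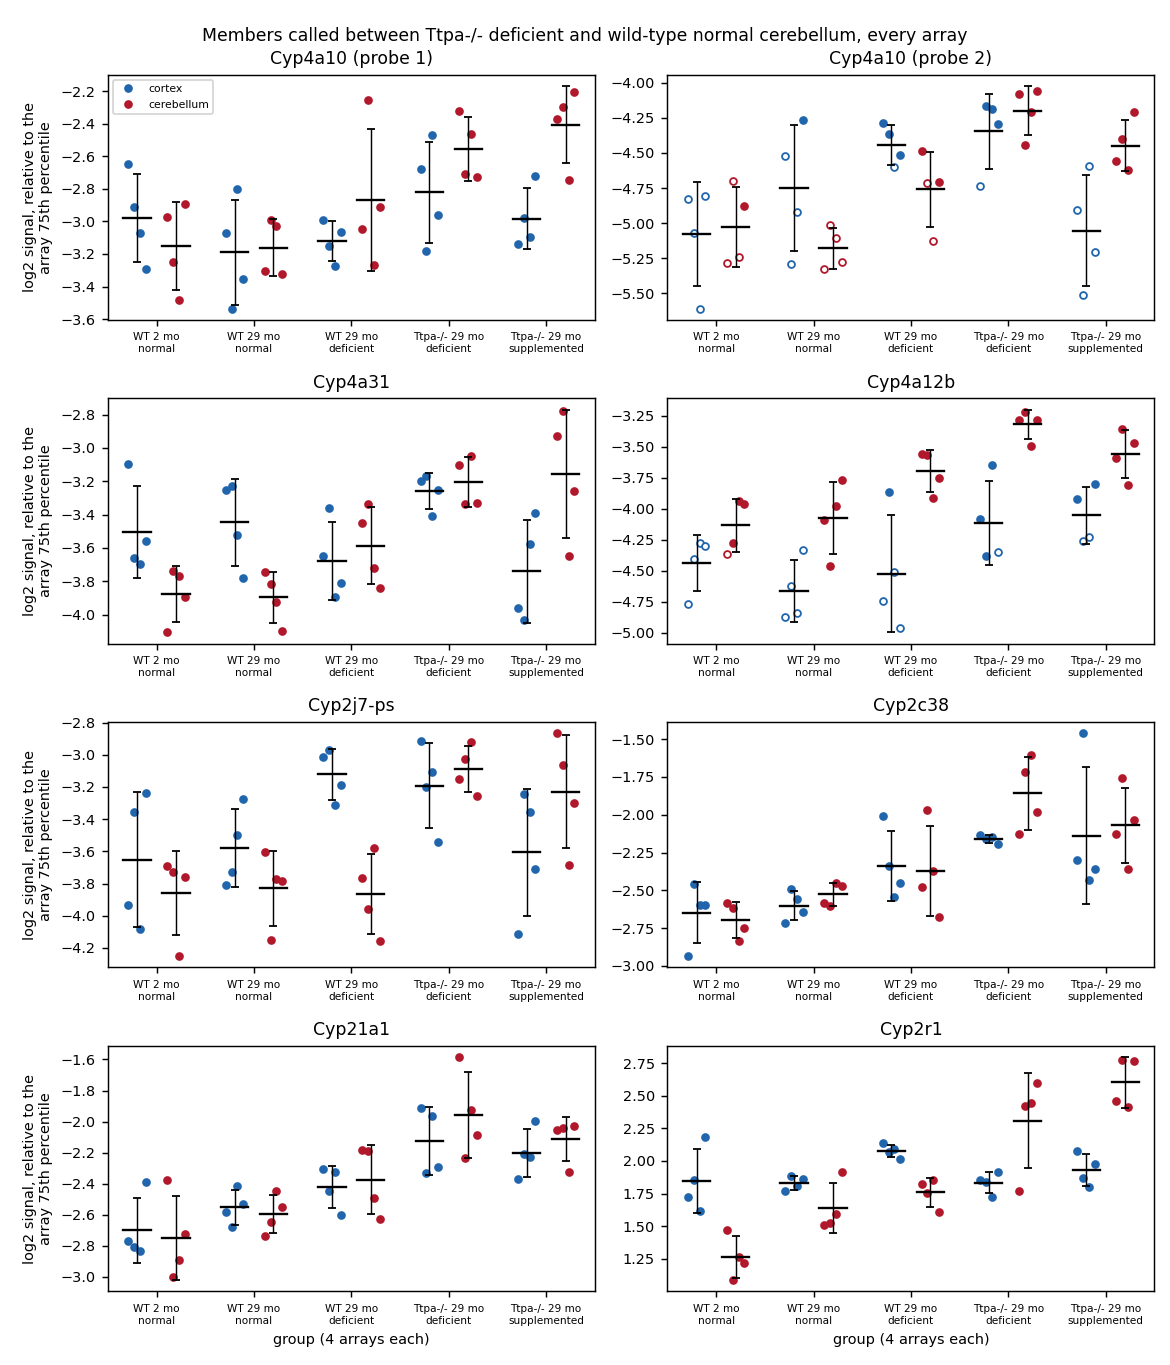
Level (log2 relative to the 75th percentile of the array) of the members called with loss of Ttpa and the deficient diet in cerebellum, per array in all 10 groups (cortex blue, cerebellum red); filled points were above background and open points not, bars give the mean and error bars the SD of 4 arrays. The cerebellar arrays of Ttpa-/- mice on the deficient diet lie above those of 29-month normal-diet wild-type mice for all shown but Cyp2r1, where 1 array overlaps.

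The same controls set beside Ttpa-/- mice on the supplemented diet gave 5 calls, an alternative chosen after seeing the data. These were Cyp2r1 (0.97), Cyp4a31 (0.74), both Cyp4a10 probes (0.76 by the first) and Cyp2j7-ps (0.60). Cyp4a12b (0.52), Cyp21a1 (0.48) and Cyp2c38 (0.46) were not called there. Between the genotypes on the deficient diet, 2 of 48 members were higher and none lower, beside 3.02% of all probes higher and 4.94% in either direction. Cyp2j7-ps differed by 0.78 (SE 0.20, adjusted p = 0.00914). Cyp17a1 differed by 0.72 (SE 0.19, adjusted p = 0.0122), with wild-type arrays at 1.98, 1.63, 2.07 and 1.84 and Ttpa-/- arrays at 1.92, 2.92, 3.01 and 2.54. The 2 groups of Cyp17a1 overlapped by 1 array, the exact permutation p was 0.0857, and the call was lost without replicate 3 of Ttpa-/- cerebellum (0.58, adjusted p = 0.0565). In that comparison Cyp2r1 differed by 0.55 (adjusted p = 0.00538), below the fold threshold at 1.46-fold, Cyp2c38 by 0.52 (adjusted p = 0.034) and Cyp4a31 by 0.38 (adjusted p = 0.134).

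In the same cerebellar comparison of Ttpa-/- mice on the deficient diet with the normal-diet controls, 2 of 6 oligodendrocyte markers were lower, Mbp by -0.62 and Mag by -0.66, and the summed oligodendrocyte list went from 211 to 254 down to 145 to 195. Gfap was lower by -0.64, as 1 of 6 astrocyte markers with a median of -0.0544, and Aif1 by -0.59, as 1 of 6 microglial markers with a median of -0.181. Of 2 liver genes tested, 1 was called lower, and it was the deleted gene Ttpa itself. Their part in the P450 values was not tested. None of the 7 pathway lists had a gene called by limma in that comparison.

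In the cortex the retinoic acid enzyme Cyp26b1 was lower in Ttpa-/- mice on the deficient than on the supplemented diet. Its arrays read 0.47, 1.37, 1.26 and 1.37 on the deficient diet and 2.53, 1.98, 2.03 and 1.93 on the supplemented diet. Every deficient array was below every supplemented one. The change, deficient minus supplemented, was -1.004 (SE 0.20, 95% interval -1.41 to -0.60, adjusted p = 0.00161), or 2.01-fold, and it stayed called with any 1 array left out, but not with only these groups in the fit (adjusted p = 0.072). In wild-type cortex the arrays read 1.48, 0.78, 0.996 and 1.57 on the normal diet and 2.27, 1.63, 1.81 and 1.51 on the deficient diet. Ttpa-/- mice on the deficient diet were thus close to the normal-diet controls, with a difference of -0.09 (adjusted p = 0.801), and below wild-type mice on the deficient diet, by -0.69 (SE 0.20, adjusted p = 0.0221). The latter call was lost without replicate 1 (-0.53, adjusted p = 0.115) or 3 (-0.69, adjusted p = 0.0513) of wild-type cortex on the deficient diet or replicate 1 of Ttpa-/- cortex (-0.47, adjusted p = 0.146). In cerebellum the diets differed by -0.47 in Ttpa-/- mice (adjusted p = 0.321).

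Between the diets in Ttpa-/- cortex, 3 of 40 members were lower on the deficient diet and none higher, beside 1.31% of all probes lower and 3.31% in either direction. Cyp2s1, which acts on retinoids and lipid peroxides, read -0.51, -0.48, -0.48 and -0.43 on the deficient diet and 0.21, -0.03, 0.41 and 0.12 on the supplemented diet. The groups were apart, and the change of -0.66 (SE 0.18, adjusted p = 0.0147) was lost without replicate 1 of the deficient (-0.65, adjusted p = 0.0501) or replicate 3 of the supplemented group (-0.58, adjusted p = 0.0591). Cyp2a4, a steroid and coumarin hydroxylase best known from liver, read -4.51, -4.55, -4.22 and -4.47 on the deficient diet, with 2 of 4 above background, and -3.82, -3.45, -0.69 and -3.11 on the supplemented diet. A single supplemented array stood far above the others. The change of -1.67 (SE 0.53, adjusted p = 0.0319) was -0.98 (adjusted p = 0.205) without it, and the call was also lost without replicate 1, 2 or 3 of the deficient group, at -1.65, -1.63 and -1.74. Another Cyp2a4 probe, which failed the detection rule, was above background on 6 arrays in all.

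Same-numbered arrays deviated together in these 2 groups, and not in these alone. With the replicate number as a block and only these groups in the fit, the adjusted p was 0.181 for Cyp26b1, 0.160 for Cyp2s1 and 0.187 for Cyp2a4, so that none was called, and this fit was added after seeing the data. With the block in the fit of all 40 arrays 3 were called. Cyp46a1 differed by 0.58 (adjusted p = 0.0486), a 1.49-fold difference under the fold threshold, and Cyp7b1 by -0.34 (adjusted p = 0.0346). The summed oligodendrocyte list was lower on the deficient diet, at 144 to 179 against 210 to 275, with 1 of 6 markers called, Mobp, lower by -1.08. Of 9 meningeal genes 2 were lower, Lum and Ogn, by -0.80 and -0.65. Of 6 cortical markers 1 was higher, Slc17a7, by 0.61, while the median of that list was -0.247, and of 5 neuronal markers 0 were called by limma. Their part in the P450 values was not tested.

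**Figure D5:**
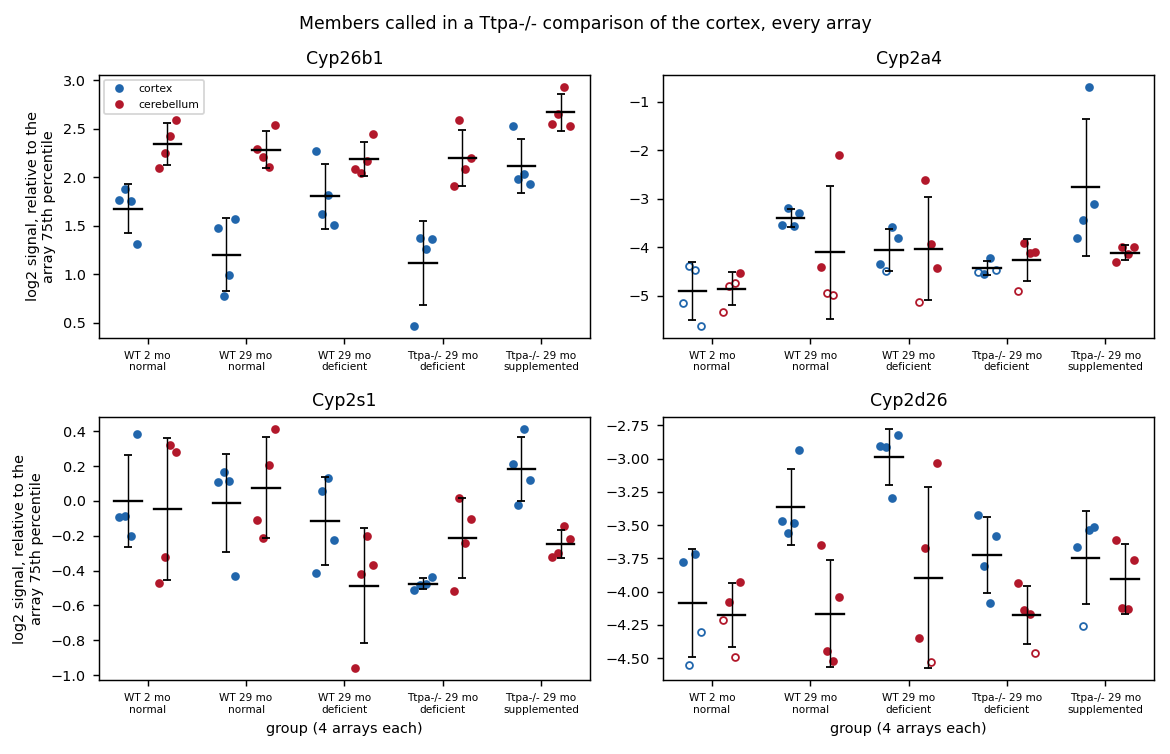
Level (log2 relative to the 75th percentile of the array) of the members called in cortex by genotype or diet, per array in all 10 groups (cortex blue, cerebellum red); filled points were above background and open points not, bars give the mean and error bars the SD of 4 arrays. Cortical Cyp26b1 is lower in Ttpa-/- mice on the deficient diet than on the supplemented diet on every array, and 1 supplemented array of Cyp2a4 stands apart.

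Between the genotypes on the deficient diet, 2 of 41 members were lower in Ttpa-/- cortex, beside 1.53% of all probes lower and 3.07% in either direction. Besides Cyp26b1 this was Cyp2d26, which read -2.91, -2.91, -3.29 and -2.82 in wild-type and -3.42, -3.81, -4.08 and -3.58 in Ttpa-/- mice. The groups did not overlap, and the change was -0.74 (SE 0.25, adjusted p = 0.0471). That call was lost in 7 of 8 fits that left out 1 array, at -0.84 to -0.62, and remained only without replicate 4 of Ttpa-/- cortex. Of the pathway genes between the genotypes on the deficient diet, the oxysterol enzyme Ch25h was lower in Ttpa-/- cortex by -1.38 and in Ttpa-/- cerebellum by -1.48. In cortex Gc, of the retinoid and vitamin D list, was also lower, by -1.15. Sts, of the steroid list, and Alad, of the haem list, were higher there, by 0.63 and 0.59. Rxrg, a receptor partner of the retinoic acid receptors, was higher in Ttpa-/- cerebellum by 0.76. In Ttpa-/- cortex Rxrg was higher by 0.68 on the deficient than on the supplemented diet.

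Besides the aging difference between the regions, limma called no member in 4 comparisons. With the deficient diet alone in wild-type mice, limma called 0 of 41 members in cortex and 0 of 48 in cerebellum, beside 0.223% and 1.27% of all probes. At an unadjusted p under 0.05 with the fold threshold there were 2 members in cortex and 1 in cerebellum, beside 3.05% and 4.2% of all probes, and the t-test of the study's methods called 0 members, as it called 0% of all probes in each. The 2 in cortex were Cyp26b1 at 0.60 (adjusted p = 0.142) and Cyp1b1 at 0.60 (adjusted p = 0.151), and the 1 in cerebellum was the first Cyp2e1 probe at -0.95 (adjusted p = 0.188).

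With loss of Ttpa and the deficient diet in cortex, limma called 0 of 42 members, beside 4.75% of all probes. There was 1 member, Cyp2f2 at -1.14 (adjusted p = 0.117), at an unadjusted p under 0.05 with the fold threshold, beside 6.04% of all probes, and the t-test of the methods called 1 member and 2.62% of all probes. Cyp7b1 differed by -0.43 (adjusted p = 0.0063) there, a 1.34-fold difference, with Ttpa-/- arrays from 0.64 to 1.07 and wild-type arrays from 1.24 to 1.31. Between the diets in Ttpa-/- cerebellum, limma called 0 of 51 members, beside 0.343% of all probes. At an unadjusted p under 0.05 with the fold threshold there were 0 members and 1.71% of all probes, and the t-test called 0 members, as it called 0% of all probes. Cyp2r1 differed there by -0.29 (adjusted p = 0.36).

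Of the 46 genes, 14 were called in no comparison. They were Cyp20a1, Cyp2c37, Cyp2c70, Cyp2d11, Cyp2d40, Cyp2f2, Cyp2j13, Cyp2j8, Cyp2t4, Cyp2u1, Cyp4b1, Cyp4f13, Cyp4f17 and Cyp4f18. Cyp20a1, whose substrate is not known, had group means from -1.15 to -0.48 by its first probe. The repeat-holding Cyp2u1 probe had group means from 4.51 to 4.91. Several of these differed by region with a small adjusted p but under the fold threshold, such as Cyp2j8 at -0.49 (adjusted p = 0.000108) and Cyp4f13 at -0.48 (adjusted p = 5.73e-05) at 2 months.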

How the data were processed

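Total RNA from cortex and cerebellum was hybridised to 40 one-colour Agilent arrays, 4 for each of 10 groups. The authors deposited the scanner output, in which each spot has a processed signal intensity made by Agilent Feature Extraction (10.7.3.1 per the file headers, 10.1.1.1 in the submitters' processing notes), with the background already subtracted and a flag for spots well above background. The authors also deposited a table of normalized log2 values. For comparison, the log2 signal was scaled to the 75th percentile, and every probe had its own average across arrays taken off. The median absolute difference between the 2 was 0.000915, so the deposited values carry no absolute level of a probe. The groups were taken from the sample labels.

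From the 55681 gene probes, 55589 measured on every array were kept and 92 were left out. The log2 intensity was set relative to the 75th percentile of each array, which ranged from 365 to 925. Arrays of a group correlated at 0.973 to 0.993. limma 3.58.1 in R 4.3.3 fitted 1 model to the 40 arrays, with group means as terms and moderated variances. P-values were adjusted by Benjamini-Hochberg over the probes tested, those with all 4 arrays above background in either compared group. A probe was called at an adjusted p under 0.05 and a fold above 1.5. Two-sided exact permutation tests over 8 arrays cannot go below 0.0286. A probe above background on no array of a group was given only a bound, the mean of the brighter group over the lowest signal well above background on the dim arrays, or over the dim probe's own signal where higher. Probe sequences and positions are columns of the deposited scanner files, and transcripts were matched to RefSeq for 50 of the 54 members.

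The members and gene lists were chosen with earlier results of these data known. Named with values were every member called in at least 1 comparison (the 30 genes with the largest change where there were more), and a list of genes of known role. The probe with the highest mean stood for a gene with several. The number of arrays limits the precision. The labels do not say whether the cortex and cerebellum of a number came from 1 mouse. Same-numbered arrays were taken as pairs only between the diets in Ttpa-/- cortex, where every pair's deviations from the group means correlated above 0.1 (0.102 to 0.450). The mean over same-numbered pairs was 0.246 there, 0.250 for aging in cortex and 0.336 for the diets in Ttpa-/- cerebellum. In the latter 2 comparisons the lowest pair was at -0.004 and -0.021. The fit was tested on simulated data. Alternatives were quantile and median scaling, normexp background correction with an offset of 50, array weights, no filter, only the compared groups, the t-test of the methods, the replicate block and leaving out each array.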

Additional observations from a re-analysis of the deposited data

Results flagged for a closer look

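Of 108 groups of 4 arrays examined for the members named, 10 had an array that stood apart from the other 3, where chance flags about 1 in 20. In cerebellum of 29-month-old normal-diet wild-type mice, replicate 4 was the highest for Cyp2d12 (-0.439, others -1.25 to -1.14), Cyp2d13 (-2.62, others -3.42 to -3.37) and Cyp2d22 (-0.430, others -1.39 to -1.30). In the cortex of the same group, replicate 4 was the highest for Cyp2d13 (-3.87, others -4.39 to -4.32), Cyp2d26 (-2.93, others -3.56 to -3.47) and Cyp3a11 (-0.882, others -1.38 to -1.32), and the lowest for Cyp4f41-ps (-6.90, others -6.56 to -6.51). In young mice, replicate 4 of cortex was the highest for Cyp39a1 (0.886, others -0.57 to -0.39), and replicate 2 of cerebellum was the highest for the first Cyp2e1 probe (-3.75, others -4.17 to -4.13). In Ttpa-/- cortex on the deficient diet, replicate 1 was the lowest for Cyp26b1 (0.466, others 1.26 to 1.37).

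The change of Cyp2r1 with loss of Ttpa and the deficient diet differed between the regions, by -0.672 (limma adjusted p = 0.0247), cortex minus cerebellum.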

How the results depend on the processing

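The number of members called depended on the processing where calls were few. For aging in cortex, 2 members became 1 with quantile normalization, median scaling, only the compared groups or the t-test of the methods, and 0 with normexp. For aging in cerebellum, 6 became 2 with median scaling, 1 with normexp, 3 with only the compared groups and 2 with the t-test. For the deficient diet, 0 became 3 with array weights in cortex and 1 with median scaling in cerebellum. For loss of Ttpa with the deficient diet, 0 in cortex became 2 with array weights or only the compared groups, and 1 with no filter, the t-test or the supplemented Ttpa-/- group, while 8 in cerebellum became 1 with normexp, 4 with the t-test and 5 with the supplemented group. Between the genotypes on the deficient diet, 2 in cortex became 1 with quantile normalization or normexp and 0 with median scaling, only the compared groups or the t-test, and 2 in cerebellum became 4 with quantile normalization, 7 with median scaling and 0 with the t-test. Between the diets in Ttpa-/- cortex, 3 became 5 with array weights, 1 with the t-test, and 0 with only the compared groups, with or without the replicate block. For the regions at 29 months 17 became 8 with normexp, and the difference between the regions of the Ttpa change had 1 call, which became 0 with median scaling, only the compared groups or the t-test and 4 with array weights. The supplemented group and the block with only the compared groups were added after seeing the data. The cause of these changes was not tested.

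With 1 array left out, in the order aging cortex and cerebellum, deficient diet cortex and cerebellum, Ttpa loss with deficient diet cortex and cerebellum, genotype cortex and cerebellum, diet in Ttpa-/- cortex and cerebellum, regions at 2 and 29 months, and region differences of aging and of Ttpa loss, the counts ran from 0 to 2, 2 to 6, 0 to 1, 0 to 1, 0 to 2, 6 to 9, 0 to 2, 1 to 4, 1 to 4, 0 to 0, 17 to 22, 15 to 19, 0 to 1 and 0 to 2. With the replicate block in the fit of 40 arrays they were 2, 6, 0, 0, 0, 9, 2, 2, 3, 0, 18, 18, 0 and 1, and the block changed no count by over 1.5 times there. A slide block could not be fitted, because each group lies on 1 slide. Of 531 results of named genes under these alternatives, 449 were called, 81 were not, and 1 reversed: the second Cyp3a13 probe between the regions at 29 months was 0.0539 (adjusted p = 0.689) with normexp. Median scaling moved the median of all probes by -0.178 for the deficient diet in cerebellum, 0.178 for the genotypes in cerebellum and 0.109 for the diets in Ttpa-/- cortex. Low members, near background, are limited by signal.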

Other observations

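The level of some members varied from array to array in a like way in both regions, a description chosen after seeing the data. The labels do not say that cortical and cerebellar arrays of the same number came from 1 mouse. Over the 20 pairs of same-numbered arrays, deviations from the group mean correlated at r = 0.830 for Cyp1b1 (Spearman's rho 0.708) and r = 0.798 for the first Cyp2e1 probe (rho 0.714). Without the 2 pairs farthest from the median they were 0.681 and 0.645. Cyp4f15 (0.738), Cyp46a1 (0.716) and Cyp2d22 (0.654) followed. The median over the 35 members above background on every array was 0.235, and that of all 24803 such probes was 0.224. The pairs share a scan day and the scaling by array, and no test was made.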
